A study of Canis lupus familiaris with 60 samples.

Results

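DSG1 and DSP code for 2 proteins of the desmosome and were followed here through the 10 combinations of dog group, time and patch treatment in the biopsied skin. The members were all probes whose array identifier, without its version, was NM_001002939 (DSG1) or ENSCAFT00000015201 (DSP), or whose symbol in the study's annotation was DSG1 or DSP. This gave 2 of the 54600 gene identifiers on the array and 3 of its 60068 probes: A_11_P0000019667 (DSG1 probe 1) and A_11_P052916 (DSG1 probe 2) for DSG1, and A_11_P056201 (DSP probe 1) for DSP. A further probe, CUST_511_PI425869835 with the identifier XM_545329, was tied to DSP by an accession in that annotation. The study's list of PCR primers gives the same accession for DSP. This probe lies outside the rule, was added after the data were seen and is named DSP probe 2. All 4 probes passed the filter on dim signals, being well above background on all 59 arrays used. In the RefSeq gene table (assembly UU_Cfam_GSD_1.0, not the build of the array), canine DSG1 stands on chromosome 7 in a row of desmosomal cadherin genes, between DSG4 and DSC1 with DSG2, DSG3, DSC2 and DSC3 further out, and DSP stands on chromosome 35 between RIOK1 and SNRNP48.

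Desmosomes are button-like junctions that tie the keratin filaments of neighbouring keratinocytes together and give the epidermis its mechanical strength. Desmogleins and desmocollins are cadherins that span the membrane and hold the cells to each other, plakoglobin and plakophilins bind their tails, and desmoplakin links this plaque to the keratin filaments inside the cell. Desmoglein 1, the product of DSG1, is the desmoglein of the upper living layers of the epidermis and is the main target of autoantibodies in human pemphigus foliaceus, a blistering skin disease. Desmoplakin, the product of DSP, is found in every desmosome.

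The samples came from 12 Beagle dogs aged 2 to 3 yr, 6 of which (4 males and 2 females) had been sensitized through the skin to a house dust mite, Dermatophagoides farinae, and 6 of which (2 males and 4 females) were nonsensitized. Each dog gave 5 punch biopsies of 8 mm: untreated skin at 0 hr, and skin under a patch with 75 mg of mite paste (allergen-treated) and under a patch with 50 µl of saline, both at 6 hr and at 24 hr. All patched sites of a dog lay in a shaved field on the side of the chest, so that the saline site carried clipping, bandage and time without allergen. Sex was not balanced between the groups of dogs and cannot be told apart from sensitization here. Each biopsy was hybridized to its own one-colour array; 1 of the 60, the 24 hr allergen-treated skin of sensitized dog 2839, came from degraded RNA and was left out by the study and here.

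The processed signals of the 59 arrays were brought to a common log2 scale, on which 1 unit is a doubling of signal. Over these arrays 68.9% to 80.2% of spots were well above background and the median signal ran from 81.7 to 146.1. A whole-skin biopsy holds epidermis, dermis and any cells that have moved in, so fewer keratinocytes and less RNA per keratinocyte cannot be told apart in any value below. The suprabasal keratinocyte marker KRT1 was well above background on all 59 arrays. Time and slide were largely confounded over the 8 slides. Untreated skin was hybridized on slides 6, 7 and 8, and skin taken at 24 hr on slides 1, 2 and 3. The exception was the allergen site of sensitized dog 2840, on slide 8. Dog group and slide were partly confounded at 24 hr, slide 1 holding 4 nonsensitized and 0 sensitized allergen arrays. A probe was called in a comparison when its Benjamini-Hochberg adjusted p in limma, over the 45972 probes past the filter, was below 0.05 and its difference was at least 1.5-fold (0.585 on the log2 scale).

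In untreated skin at 0 hr, DSG1 and DSP had similar signals in both groups of dogs. DSG1 probe 1 ranged from 12.66 through a median of 12.76 to 13.41 in the 6 sensitized dogs and from 12.94 through 12.96 to 13.15 in the 6 nonsensitized dogs. The groups overlapped, and the highest sensitized value was that of dog 2838. DSG1 probe 2 ran from 11.80 to 12.58 (median 12.10) and from 11.84 to 12.56 (median 12.23), so that these groups overlapped almost entirely. For DSP probe 1 the lowest, median and highest values were 14.49, 14.58 and 15.04 in sensitized dogs and 14.52, 14.66 and 14.81 in nonsensitized dogs. The difference of sensitized minus nonsensitized was -0.13 ± 0.13 (SE; 95% interval -0.40 to 0.14) for DSG1 probe 1, -0.12 ± 0.13 (-0.38 to 0.15) for DSG1 probe 2 and 0.00 ± 0.11 (-0.22 to 0.23) for DSP probe 1, each with adjusted p = 1.0 in limma. Without dog 2838 the DSG1 probe 1 difference was -0.23, and without dog 2853 it was -0.08. The intervals from all dogs leave out a baseline difference of 1.5-fold in either direction for all 3 probes. Over all probes 1 was called at 0 hr (0.00218%).

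After 6 hr under the patches the allergen sites lay a little below the saline sites for DSG1 in sensitized dogs, without passing the test. Within each of the 6 sensitized dogs DSG1 probe 1 was lower at the allergen site, by 0.04 (dog 2840) to 0.66 (dog 2855) with a mean of -0.29 ± 0.22 (SD, n = 6), and DSG1 probe 2 was lower in all 6 dogs by 0.09 to 0.53 with a mean of -0.29 ± 0.16. In nonsensitized dogs DSG1 probe 1 was lower in 5 of 6 dogs (mean -0.17 ± 0.26) and DSG1 probe 2 in 4 of 6 (mean -0.08 ± 0.25). For DSP probe 1 the allergen site was lower in 4 of 6 sensitized dogs (mean -0.15 ± 0.17) and in 5 of 6 nonsensitized dogs (mean -0.27 ± 0.32). The difference between the dog groups in their allergen minus saline difference, called the interaction in the following, was -0.13 ± 0.19 (SE) for DSG1 probe 1, -0.21 ± 0.19 for DSG1 probe 2 and 0.13 ± 0.16 for DSP probe 1, with adjusted p = 1.0 for each in limma. Without 1 dog these values moved from -0.20 (dog 2847) to -0.05 (dog 2845 or 2855) for DSG1 probe 1 and from 0.06 (dog 2716) to 0.20 (dog 2800) for DSP probe 1, and the DSG1 probe 1 difference in nonsensitized dogs from -0.24 (dog 2845) to -0.09 (dog 2847). No probe of the array was called for the 6 hr interaction (0.0%), while 526 had an unadjusted p below 0.05 (1.14%). At 6 hr the response of the desmosomal genes did not differ detectably between sensitized and nonsensitized dogs.

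At 24 hr the DSG1 and DSP signals at allergen sites were lower in sensitized than in nonsensitized dogs, whose arrays lay partly on different slides. DSG1 probe 1 read 12.89, 12.63, 12.35, 12.40 and 12.32 under the allergen patch in sensitized dogs 2838, 2840, 2841, 2853 and 2855, against 12.62 to 13.36 (median 12.86) in the 6 nonsensitized dogs. These groups overlapped through dog 2838 and, narrowly, dog 2840. DSG1 probe 2 read 11.77, 11.86, 11.75, 11.53 and 11.59 in the same 5 sensitized dogs and 12.07 to 12.40 (median 12.23) in the nonsensitized dogs, with no overlap. DSP probe 1 read 14.31, 13.83, 14.54, 14.50 and 14.48 and, in nonsensitized dogs, 14.74 to 15.08 (median 14.94), also with no overlap, dog 2840 having the lowest value. Every sensitized array below every nonsensitized array at 24 hr allergen sites was seen for 2 of the 3 probes and for 4.10% of all probes. Sensitized minus nonsensitized at the allergen sites was -0.38 ± 0.14 (SE) for DSG1 probe 1 (adjusted p = 0.0418 in limma), -0.54 ± 0.14 for DSG1 probe 2 (adjusted p = 0.0043) and -0.58 ± 0.12 for DSP probe 1 (adjusted p = 0.000474). All 3 fell short of the fold limit of 0.585, DSP narrowly, so none was called, and 3.57% of all probes were called lower in this comparison. With dog as a random block the DSP probe 1 value was -0.59 (adjusted p = 0.000816) and called, and the DSG1 probe 1 value was -0.37 (adjusted p = 0.0561). Without 1 dog the DSG1 probe 1 value ran from -0.47 to -0.29 with adjusted p from 0.0153 to 0.148, below 0.05 in 6 of 12 fits and above it without dog 2800, 2802, 2840, 2841, 2853 or 2855. The DSP probe 1 value ran from -0.63 (without dog 2841) to -0.45 (without dog 2840) and was called in 5 of 12 fits. Its adjusted p in limma was 0.000355 to 0.0069. Dog group was partly confounded with slide at these sites. Slide 1 held 4 nonsensitized and 0 sensitized allergen arrays, and slide 3 held 1 nonsensitized and 3 sensitized ones. With slide as a fixed block the DSG1 probe 1 value was -0.40 (adjusted p = 0.15) and the DSP probe 1 value -0.28 (adjusted p = 0.113).

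At the saline sites the groups of dogs overlapped at 24 hr. DSG1 probe 1 ran from 12.25 to 13.06 (median 12.73) at the saline sites of sensitized dogs and from 12.36 to 12.91 (median 12.41) at those of nonsensitized dogs, and DSG1 probe 2 from 11.61 to 12.22 (median 11.92) and from 11.46 to 12.12 (median 11.73). DSP probe 1 ran from 14.39 to 14.76 (median 14.68) and from 14.22 to 14.83 (median 14.65). Sensitized minus nonsensitized was 0.22 ± 0.13, 0.14 ± 0.13 and 0.04 ± 0.11 (SE) for the 3 probes, with adjusted p from 0.34 to 0.875 in limma.

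**Figure D1:**
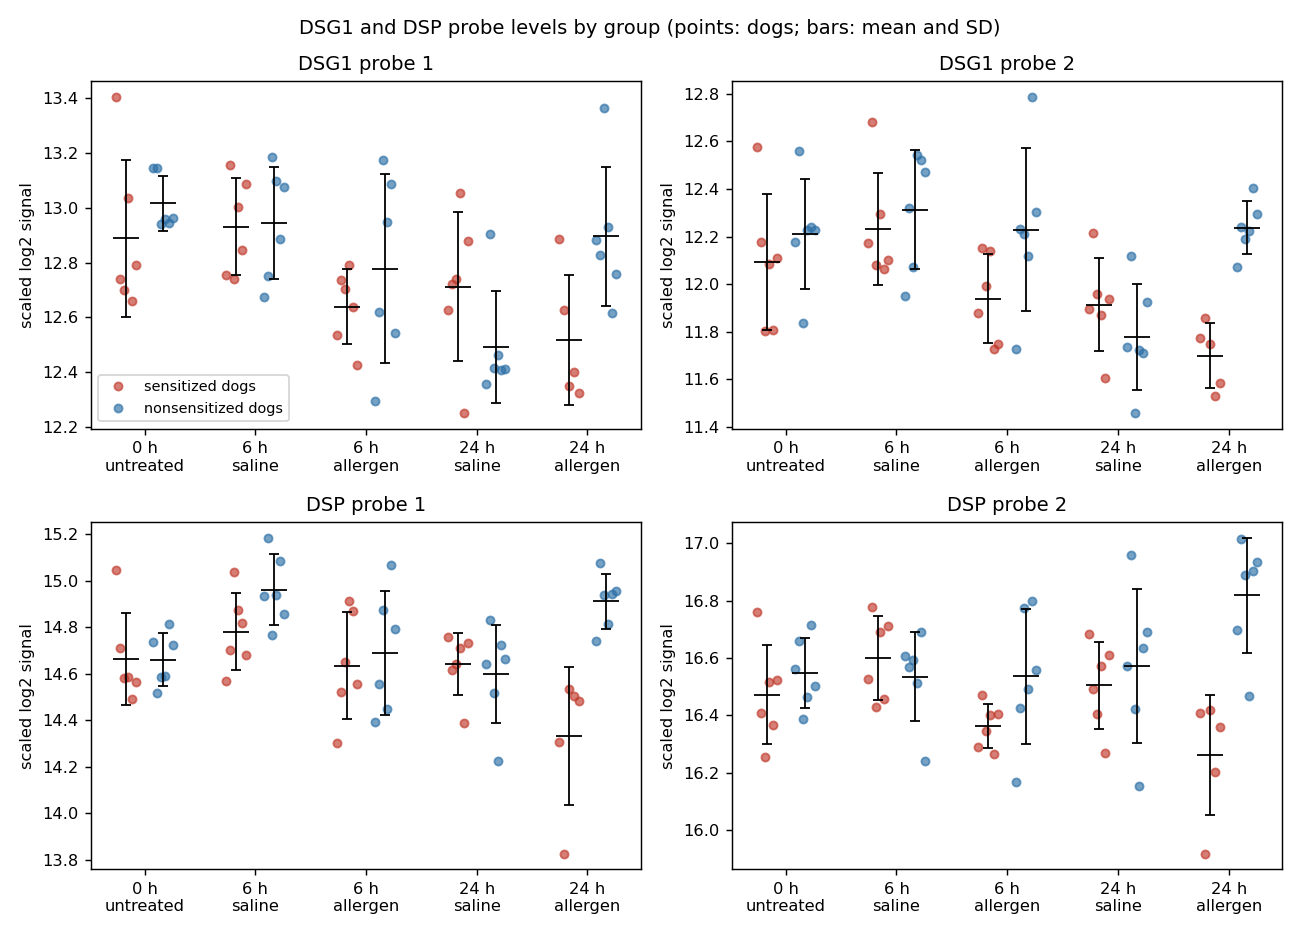
Scaled log2 signal (vertical axis) of the DSG1 and DSP probes in each group of biopsies (horizontal axis), with 1 point per dog, red for sensitized and blue for nonsensitized dogs, and the mean and SD as bars; vertical ranges differ between panels. At 24 hr allergen sites the red and blue points do not overlap for DSG1 probe 2 and DSP probes 1 and 2, whereas they overlap in the other groups and for DSG1 probe 1.

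The 24 hr interaction was negative for every probe of both genes and was called at DSP probe 1 alone, not at DSP probe 2. It was made of opposite shifts in the 2 groups of dogs, neither of which passed the test alone. In sensitized dogs allergen minus saline was -0.20 ± 0.14 (SE) for DSG1 probe 1, -0.22 ± 0.14 for DSG1 probe 2 and -0.31 ± 0.12 for DSP probe 1, with adjusted p = 0.699, 0.635 and 0.266 in limma, a comparison in which 0.1% of all probes were called lower. The DSG1 probe 1 value moved to -0.31 without dog 2838, -0.11 without dog 2855 and -0.08 without dog 2841. In nonsensitized dogs it was 0.40 ± 0.13, 0.46 ± 0.13 and 0.31 ± 0.11, with adjusted p = 0.121, 0.0602 and 0.183, and 0.107% of all probes were called higher. The interaction was -0.62 ± 0.16 for DSP probe 1, a 1.54-fold difference with adjusted p = 0.0407 in limma. For DSG1 it was -0.60 ± 0.19 at probe 1 (adjusted p = 0.102) and -0.67 ± 0.19 at probe 2 (adjusted p = 0.0595), so neither DSG1 probe was called. Called lower in the 24 hr interaction were thus 1 of 3 member probes and 0.342% of all probes (157 of 45972). Both genes stand in the study's own list of genes for this comparison, drawn from these same arrays, so their place in it is no independent evidence. The study also measured both genes by quantitative RT-PCR on the same RNA samples, and those values were not used here.

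The calls changed with the block, the probe and the dogs entered. With each dog as a fixed block the DSG1 probe 1 interaction was -0.59 ± 0.19 with adjusted p = 0.0415, and with dog as a random block -0.59 ± 0.18 with adjusted p = 0.0321, both called. With the mean over the 2 DSG1 probes it was -0.64 ± 0.17 with adjusted p = 0.0428, also called. For DSP probe 1 the dog block left the call in place (-0.63 ± 0.16, adjusted p = 0.0125), but slide as a fixed block moved the value to -0.41 ± 0.14 (adjusted p = 0.0672) and below the fold limit. Within slides that held all 4 groups of 24 hr arrays, the interaction was -0.88 on slide 2 and -0.66 on slide 3 for DSG1 probe 1, and -0.26 and -0.77 for DSP probe 1, from 6 and 8 arrays. On slide 2 each dog group had 1 allergen and 2 saline arrays. On slide 3 the nonsensitized side was 1 allergen and 1 saline array, both of dog 2802. The sensitized arm of DSP rested in part on dog 2840: without this dog allergen minus saline in sensitized dogs was -0.18 in place of -0.31, and the interaction was -0.49 (adjusted p = 0.12). Over the 12 fits that left out 1 dog the DSP interaction ran from -0.71 to -0.49 with adjusted p from 0.0269 to 0.137, and it was called in 4 of them, losing the call without dog 2800, 2802, 2838, 2839, 2840, 2845, 2847 or 2855.

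Taken dog by dog, the 24 hr differences moved apart. Allergen minus saline for DSP probe 1 was -0.45, -0.82, -0.18, 0.12 and -0.25 in sensitized dogs 2838, 2840, 2841, 2853 and 2855. It was 0.10, 0.24, 0.42, 0.59, 0.22 and 0.29 in nonsensitized dogs 2704, 2716, 2800, 2802, 2845 and 2847, so all 6 nonsensitized dogs were higher at the allergen site and 4 of 5 sensitized dogs lower. For DSG1 probe 2 the difference was negative in all 5 sensitized dogs (-0.35 to -0.07) and positive in all 6 nonsensitized dogs (0.12 to 0.73). Such opposite signs in every dog were found for 0.419% of all probes. For DSG1 probe 1 the signs were mixed, with 3 of 5 sensitized dogs lower (-0.71 to 0.26) and 5 of 6 nonsensitized dogs higher (-0.08 to 0.95). The exact two-sided permutation test of dog labels over these differences gave p = 0.00433 for DSP probe 1 and for DSG1 probe 2 (mean differences -0.63 and -0.61) and p = 0.0325 for DSG1 probe 1 (-0.60). After Benjamini-Hochberg adjustment over 28 exact tests on the 4 probes these permutation values were 0.0404, 0.0404 and 0.0909. That adjustment does not cover the choice of the genes, which was made with earlier results of these data known. Within a group alone, the exact sign-flip test could not go below p = 0.0625 in the 5 sensitized dogs or below 0.0312 in the 6 nonsensitized dogs, and the nonsensitized values were at that smallest p for DSG1 probe 2 and DSP probe 1 (adjusted 0.0909).

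**Figure D2:**
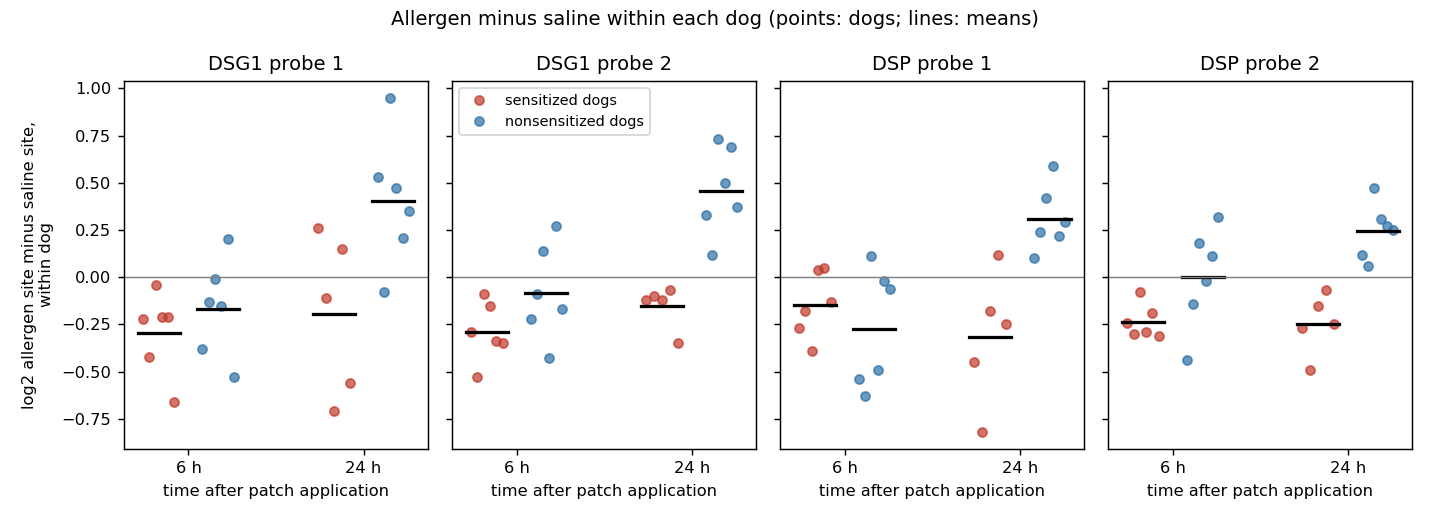
Log2 signal at the allergen site minus the saline site of the same dog (vertical axis) at 6 hr and 24 hr (horizontal axis) for each DSG1 and DSP probe, with 1 point per dog, red for sensitized and blue for nonsensitized dogs, and black lines at the group means. At 24 hr the 6 nonsensitized dogs lie above 0 for DSG1 probe 2 and both DSP probes, and the sensitized dogs lie at or below 0 apart from dogs 2838 and 2853 at DSG1 probe 1 and dog 2853 at DSP probe 1.

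DSP probe 2 gave the same direction as DSP probe 1 at 24 hr, with an SD between sensitized dogs of 0.16 against 0.35. Its allergen minus saline difference was negative in all 5 sensitized dogs (-0.49 to -0.07) and positive in all 6 nonsensitized dogs (0.06 to 0.47), with an exact permutation p = 0.00216, the smallest this design allows (adjusted 0.0404). Its interaction of -0.49 ± 0.15 was below the fold limit, with adjusted p = 0.0927 in limma. At 24 hr allergen sites it ranged from 15.92 to 16.42 in sensitized and from 16.47 to 17.02 in nonsensitized dogs, without overlap. At 6 hr, however, the 2 DSP probes differed in sign: the interaction was -0.24 ± 0.15 at probe 2 and 0.13 ± 0.16 at probe 1, neither passing the test.

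The probes of each gene followed each other across biopsies. Over the 59 arrays Pearson's r was 0.70 (Spearman's rho 0.65) between the DSG1 probes and 0.68 (0.63) between the DSP probes. After each group's mean was taken off, r was 0.54 and 0.64, and between the 10 group means it was 0.92 and 0.76. Between the genes r was 0.43 to 0.57 over the arrays for the 4 pairings of a DSG1 probe with a DSP probe. These values describe arrays that share dogs, slides and the scaling, and carry no test. The 2 probes of DSG1 differed from each other with an SD of 0.22 over arrays.

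Ordered by mean signal, no group of biopsies stood clear of its neighbours at the 3 member probes. For DSG1 probe 1 the order ran from untreated nonsensitized skin (13.02 ± 0.10, SD) down to 24 hr allergen-treated skin of sensitized dogs (12.52 ± 0.24) and 24 hr saline-treated skin of nonsensitized dogs (12.49 ± 0.20). For DSP probe 1 it ran from 6 hr saline (14.96 ± 0.15) and 24 hr allergen sites (14.91 ± 0.12) of nonsensitized dogs to the 24 hr allergen sites of sensitized dogs (14.33 ± 0.30). In neither order, nor in that of DSG1 probe 2, did any step between neighbours exceed the larger of the 2 SDs; the step of 0.27 above the lowest DSP group came nearest. At DSP probe 2 the 24 hr allergen sites of nonsensitized dogs stood highest (16.82), 0.22 above the next group against a larger SD of 0.20.

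Across time, DSG1 signals at 24 hr were below those of untreated skin at the saline site of nonsensitized dogs and at the allergen site of sensitized dogs. In nonsensitized dogs the 24 hr saline site was below untreated skin in 6 of 6 dogs at both DSG1 probes, by -0.52 ± 0.13 (SE) at probe 1 (adjusted p = 0.000855 in limma) and by -0.43 ± 0.13 at probe 2 (adjusted p = 0.00492). The 24 hr allergen site of the same dogs differed from untreated skin by -0.12 ± 0.13 and 0.03 ± 0.13. In sensitized dogs the 24 hr allergen site was below untreated skin, by -0.37 ± 0.14 (adjusted p = 0.03) at probe 1 and -0.39 ± 0.14 (adjusted p = 0.0199) at probe 2, and the saline site differed by -0.18 ± 0.13 at each probe. At probe 1 that saline value rested largely on dog 2838, at -0.78, and was -0.06 without this dog. The differences between the dog groups in these changes did not pass the test, at 0.35 ± 0.19 (adjusted p = 0.472) for the saline site and -0.25 ± 0.19 (adjusted p = 0.449) for the allergen site at probe 1. For the allergen site this was -0.14 without dog 2800 and -0.42 ± 0.19 at probe 2 (adjusted p = 0.186), and the allergen site change in nonsensitized dogs at probe 1 was -0.23 without dog 2800. Without sensitized dog 2841 or 2855 the allergen site change in sensitized dogs was -0.30 (adjusted p = 0.147) or -0.34 (adjusted p = 0.0912) at probe 1. None of the changes reached 1.5-fold, so none was called, while 12.8% of all probes were called lower at nonsensitized saline sites and 6.17% at sensitized allergen sites. The change at nonsensitized saline sites became called with quantile normalization (-0.60, adjusted p = 0.000581) and with normexp background correction and quantile normalization (-0.66, adjusted p = 0.0002).

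DSP probe 1 at 24 hr was below untreated skin at the allergen site of sensitized dogs, by a difference that rested on 2 of 5 dogs. Against untreated skin, DSP probe 1 at the 24 hr allergen site was -0.33 ± 0.12 (SE; adjusted p = 0.0221 in limma) in sensitized and 0.25 ± 0.11 (adjusted p = 0.0651) in nonsensitized dogs, where 6 of 6 dogs were higher. In the sensitized dogs it was -0.74 in dog 2838 and -0.76 in dog 2840, and between -0.08 and 0.01 in the other 3. Without dog 2838 or 2840 the sensitized value was -0.25 (adjusted p = 0.106) or -0.22 (adjusted p = 0.143). DSP probe 2 read -0.21 ± 0.11 (adjusted p = 0.126) in sensitized dogs, with all 5 dogs lower, and 0.27 ± 0.11 (adjusted p = 0.0329) in nonsensitized dogs. The 24 hr saline site differed from untreated skin by -0.02 ± 0.11 in sensitized and -0.06 ± 0.11 in nonsensitized dogs at probe 1, but by -0.66 (adjusted p = 0.0238) and -0.80 (adjusted p = 0.0241), both called, with slide as a fixed block. The difference between dog groups in the 24 hr allergen minus 0 hr change was -0.58 ± 0.16 for DSP probe 1 (adjusted p = 0.0402, just short of the fold limit). It was -0.59 and called with dog as a fixed block (adjusted p = 0.0132), but -0.27 with slide as a fixed block (adjusted p = 0.398) and -0.36 with scan session as a block (adjusted p = 0.26). Over the 12 fits that left out 1 dog it ran from -0.66 to -0.47 with adjusted p from 0.022 to 0.13, below 0.05 in 4 of them and above it without dog 2716, 2800, 2838, 2839, 2840, 2845, 2847 or 2855. In that contrast 1.13% of all probes were called lower. The 24 hr interaction differed from the 6 hr interaction by -0.75 ± 0.23 for DSP probe 1 and -0.47 ± 0.27 for DSG1 probe 1, each with adjusted p = 1.0, and no probe was called for that contrast (0.0%; 1562 at an unadjusted p below 0.05). Because 0 hr and 24 hr arrays shared only slide 8, these changes with time cannot be told apart from slide: with slide as a fixed block the DSP change was -0.80 at sensitized allergen sites (adjusted p = 0.00077) and -0.52 at nonsensitized ones, and the DSG1 change was -0.22 ± 0.27 at sensitized allergen sites (adjusted p = 0.621) and -0.36 ± 0.33 at nonsensitized saline sites. At the sensitized allergen sites the adjusted p of DSG1 was 0.0553 with slide as a random block and 0.0515 with scan session as a block. Without scaling between arrays the DSG1 change at nonsensitized saline sites was 0.08 where the median of all probes was 0.51.

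**Figure D3:**
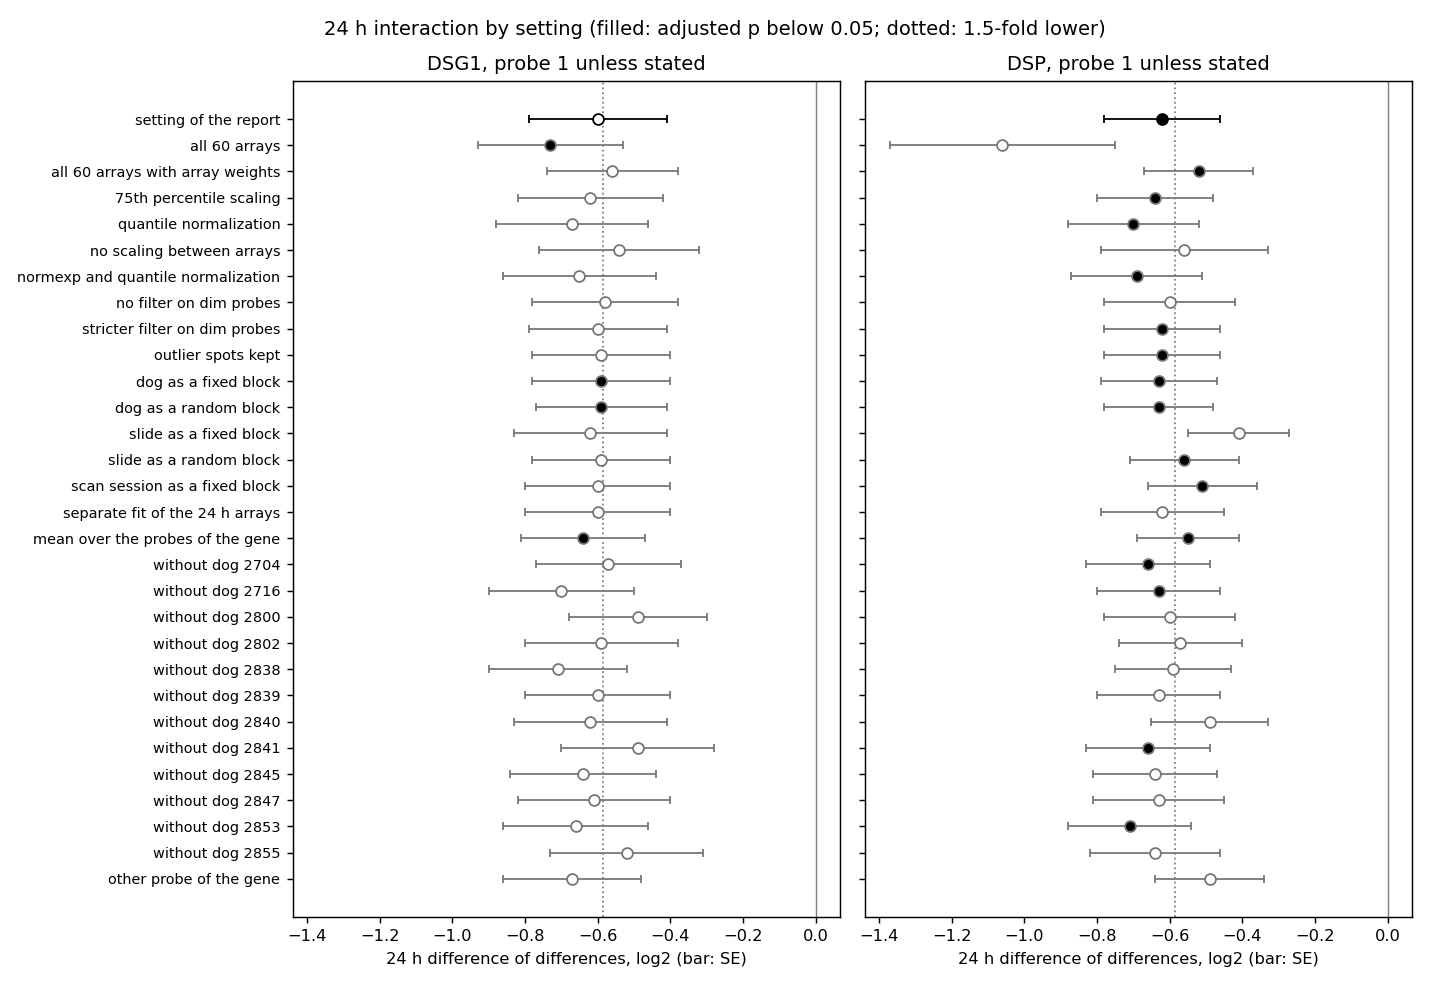
The 24 hr interaction (horizontal axis, log2, bars are SE) of DSG1 and of DSP under the setting of the report and each alternative (vertical axis), with filled points where the adjusted p was below 0.05 and a dotted line at 1.5-fold lower. All points lie below 0, from -0.73 to -0.49 for DSG1 and from -1.06 to -0.41 for DSP, with the DSP extreme given by all 60 arrays.

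The array left out weighed on DSP more than on DSG1. Scaled together with the others, the degraded sample of sensitized dog 2839 read 11.71 for DSP probe 1, against 13.82 to 15.18 on the other 59 arrays, and 14.51 for DSP probe 2, against 15.91 to 17.01. For DSG1 it read 11.72 at probe 1 and 11.23 at probe 2, against lowest values of 12.24 and 11.46 elsewhere. With this array kept, DSP probe 1 allergen minus saline in sensitized dogs became -0.75 (adjusted p = 0.0411) and its interaction -1.06 ± 0.31 (adjusted p = 0.0544). The part of RNA degradation in these values was not tested.

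Marker genes of skin cell types were read over the same 24 hr contrast. Each list was summed as the mean of its genes' log2 signals after taking off each gene's own mean, using those genes that a named probe measured, and each measured marker was well above background on most arrays. The suprabasal keratinocyte list (7 of 9 genes: KRT1, FLG2, TGM1, SCEL, CALML5, KPRP and ASPRV1) ranged from -0.84 to -0.58 at 24 hr allergen sites of sensitized dogs and from -0.10 to 0.55 in nonsensitized dogs, against -0.54 to 0.26 and -0.49 to 0.03 at the saline sites. The single basal keratinocyte marker of 6, KRT15, ranged from -1.04 to -0.56 and from -0.48 to 0.33 at the allergen sites. The neutrophil list (3 of 4: S100A8, CXCR2 and MMP9) ran the other way, from 1.32 to 1.58 at allergen sites of sensitized dogs and from -0.49 to 0.85 in nonsensitized dogs. Macrophage markers (3 of 5: CD14, CD163 and MRC1) ranged from 0.48 to 1.42 and from -0.06 to 0.51 at the allergen sites, and from -0.19 to 1.06 and from 0.47 to 1.52 at the saline sites.

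The same difference of differences, written as a mean only, was -1.01 for the suprabasal list, -0.76 for KRT15, 1.47 for neutrophils, 1.29 for macrophages, 1.15 for endothelium (2 of 5: VWF and SELE), 0.96 for mast cells (3 of 4) and 0.45 for T cells (4 of 5). It was 0.06 for fibroblasts (3 of 6), -0.05 for muscle and fat (2 of 5), -0.11 for the hair follicle marker KRT71 (1 of 5) and -0.26 for melanocytes (3 of 5, KIT being shared with the mast cell list). These means were not tested, and several rest on genes of the study's own list for this comparison: 6 of the 7 suprabasal genes, KRT15, 2 of the 3 macrophage and 2 of the 3 mast cell genes, SELE and 1 of the 4 T cell genes, but none of the neutrophil or fibroblast genes. The suprabasal gene outside that list, KRT1, had an interaction of -0.50 ± 0.29 (SE; adjusted p = 0.449 in limma). Their part in the DSG1 and DSP values was not tested. Many of these markers could be named only through the study's own annotation of its results.

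Other junction and epidermal genes were read from a list of 48 genes, of which 15 had a named probe past the filter. For the 24 hr interaction 2 of the 15 were called lower and none higher, against 0.342% lower and 0.598% higher of all probes. All 15 values were below 0, with a median of -0.56, while 50.8% of all probes lay below 0 with a median of -0.005. Of the 15, however, 8 stand in the study's list for this very comparison, and both called genes are among these. The other 7 had a median of -0.41, with none called and all 7 below 0.

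By role, the plaque protein periplakin (PPL), which like desmoplakin joins keratin filaments to junctions, was called at -0.63 ± 0.16 (SE; adjusted p = 0.0407 in limma), close to the value of DSP probe 1. Cingulin (CGN), of the cytoplasmic side of tight junctions, was called at -0.98 ± 0.22 (adjusted p = 0.0177) by its brightest probe, its other probe reading -0.44. The tight junction protein occludin (OCLN) was -0.56 ± 0.13 (adjusted p = 0.0194), short of the fold limit. All 3 are in the study's list.

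Among the genes outside that list, DSG3, the desmoglein of the deep epidermal layers and a neighbour of DSG1 on the chromosome, had an interaction of -0.04 ± 0.35 (SE; adjusted p = 0.984 in limma), a spread too wide to set it apart from DSG1. The keratins of the upper epidermis, KRT1 and KRT2, to whose filaments desmoplakin anchors the desmosome, were at -0.50 ± 0.29 and -0.55 ± 0.33. The proteases that cut corneodesmosomes, KLK5 and KLK14, were at -0.45 ± 0.19 and -0.41 ± 0.20. The scaffold and adherens junction genes TJP1 and CTNNB1 were at -0.16 ± 0.10 and -0.06 ± 0.12 by their brightest probes, the 4 CTNNB1 probes running from -0.33 to -0.04. In the listed set, KRT77 (-1.45 ± 0.40), the transcription factors GATA3 (-0.83 ± 0.24) and ZNF750 (-0.59 ± 0.17), KRT15 (-0.76 ± 0.22) and the protease inhibitor SPINK5 (-0.65 ± 0.22) did not pass the adjusted threshold.

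**Figure D4:**
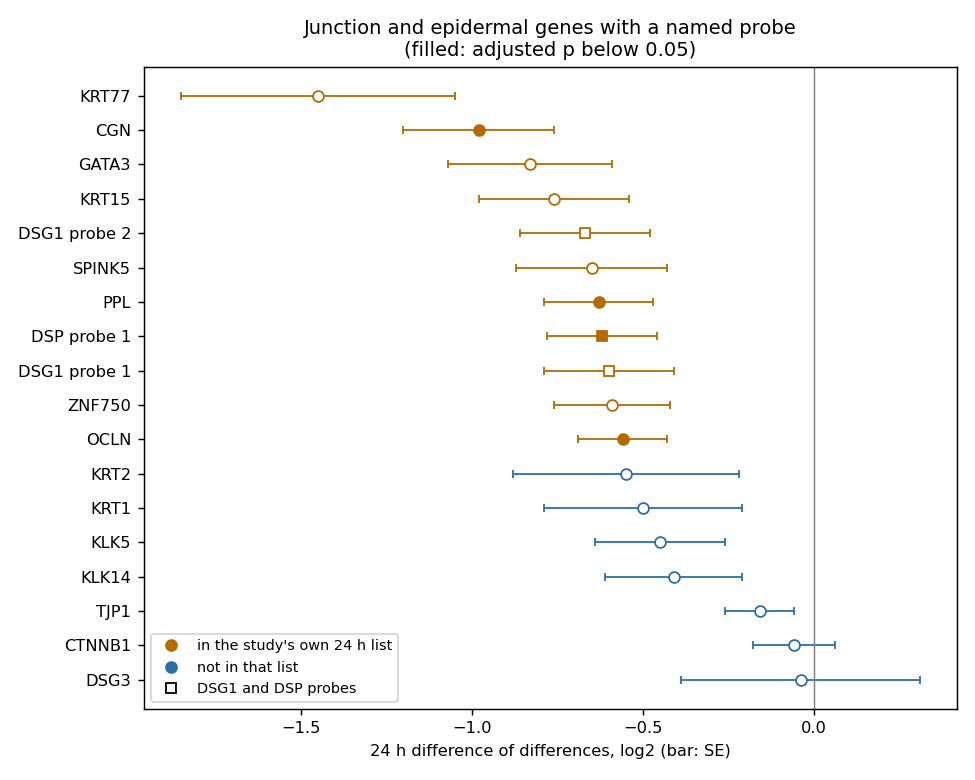
The 24 hr interaction (horizontal axis, log2, bars are SE) of junction and epidermal genes with a named probe (vertical axis), orange for genes in the study's own 24 hr list and blue for others, squares for the DSG1 and DSP probes, filled where the adjusted p was below 0.05. The 3 member probes lie between -0.67 and -0.60, next to PPL at -0.63, and the blue points lie between -0.55 and -0.04.

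The named genes whose signal followed DSG1 most closely over the 59 arrays were MFAP3L (Pearson's r 0.80), C12orf28 (0.80), ABLIM3 (0.78), SCEL (0.75) and EXPH5 (0.75). Those nearest to DSP were ZNF750 (0.76), KLC3 (0.75), ASPRV1 (0.75), CAMSAP3 (0.72) and CCDC78 (0.72). Of these, SCEL codes for sciellin, a precursor of the cornified envelope, ASPRV1 for a protease of the stratum granulosum, and ZNF750 for a regulator of terminal epidermal differentiation. Within groups of biopsies r was 0.66 to 0.71 for the first 5 genes and 0.56 to 0.69 for the second 5. The median r over the 1276 named genes was -0.07 with DSG1 and -0.10 with DSP. All 10 genes are in the study's 24 hr list, as are 389 of the 1278 genes that could be named at all, so the choice of names favoured genes that moved at 24 hr.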

How the data were processed

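Per the file headers and the study's methods, the authors extracted the deposited intensity values with Agilent Feature Extraction 10.7.3.1 as background-subtracted, unscaled one-colour signals; the deposited series table holds the same values. For 2 deposited arrays the file carried no scan header.

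Probes flagged well above background in 5 or more biopsies of any group were kept (47229 spots, 45972 probes). Outlier spots (4588 values) were set missing, and replicate spots of a probe were averaged. Scaling followed the vsn model, reimplemented in Python 3.11.15. The 10 group means were fitted in 1 unpaired limma model (3.58.1, R 4.3.3; prior df 3.52, residual df 49); the study's methods describe unpaired limma analyses by time, and a separate fit of the 24 hr arrays is among the alternatives. The brightest probe stands for a gene, for DSG1 and DSP among the probes that met the rule. DSP is thus reported by probe 1 (median signal 26539.5), although DSP probe 2, outside the rule, was brighter (91672.5). Both steps were tested on simulated data. Dog numbers pair samples, being the same animal: deviations from group means had a median r of 0.385 within dogs (116 pairs; lowest dog 0.197) and -0.044 between dogs. Single values were checked by exact permutation over dogs.

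Probes were named by RefSeq accession or the study's annotation (1939 probes, 1278 genes). Members, gene lists and marker lists were chosen with earlier results of these data known. The named genes were all probes of DSG1 and DSP, the 49 listed genes (1 of them is not reported here and is left out of the counts and medians) and the 5 genes most like each. The authors' own fold changes and p-values were not used, and probe sequences were not used here. Precision is limited by the number of dogs, 6 in each group and 5 for sensitized dogs at 24 hr allergen sites. Alternatives covered specimen, scaling, filter, probe, threshold, dog, slide, scan session and each dog left out.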

Additional observations from a re-analysis of the deposited data

Results flagged for a closer look

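The DSP probe 1 interaction at 24 hr (-0.62) and the difference between the groups of dogs in its 24 hr allergen minus 0 hr change (-0.58) had adjusted p below 0.05 in the limma test of the difference itself. The latter was short of the fold limit, was -0.27 with slide as a fixed block, and had adjusted p below 0.05 in 4 of the 12 fits without 1 dog. For DSG1 probe 2 (mean difference -0.61) and DSP probe 2 (-0.49), allergen minus saline at 24 hr was below 0 in every sensitized dog and above 0 in every nonsensitized dog; the exact permutation tests of these differences are given above, and neither passed the adjusted threshold in limma.

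In 2 of the 40 probe and group combinations 1 dog stood far from the rest, as chance alone would give in about 5% of groups. DSG1 probe 1 read 12.91 at the 24 hr saline site of nonsensitized dog 2716, where the other 5 dogs lay between 12.36 and 12.46. DSG1 probe 2 read 12.68 at the 6 hr saline site of sensitized dog 2839, where the others lay between 12.06 and 12.29.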

How the results depend on the processing

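The 24 hr interaction of both genes was negative in every alternative run, from -0.73 to -0.49 for DSG1 and from -1.06 to -0.41 for DSP. The DSG1 interaction became called with all 60 arrays (-0.73), with dog as a fixed (-0.59) or random (-0.59) replicate block and with the mean over both probes (-0.64); the dog block changed no other call than those of DSP given above. Without 1 dog it was -0.71 to -0.49 and never called. The DSP interaction was no longer called with all 60 arrays (-1.06), array weights (-0.52), no scaling (-0.56), no filter (-0.60), slide as a fixed (-0.41) or random (-0.56) block, scan session as a block (-0.51), the 24 hr arrays alone (-0.62), the mean of both probes (-0.55) or probe 2 (-0.49, both chosen after seeing the data), and was -0.71 to -0.49 without 1 dog. Over the whole array 157 probes were called lower here, from 2 (without dog 2855) and 4 (no scaling) to 382 (all 60 arrays) among settings that lost the DSP call, and 669 with dog as a fixed block, which kept it. DSP allergen minus saline in sensitized dogs was called at -0.75 with all 60 arrays, which add the degraded sample, and not otherwise.

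The DSP difference at 0 hr, 0.00 here, took the opposite sign at -0.09 (array weights), -0.01 (75th percentile scaling and slide block), -0.02 (no filter), -0.05 (scan session), -0.04 (mean of probes) and -0.08 (probe 2), and lay between -0.07 and 0.04 without 1 dog; none was called. The DSP interaction at 6 hr was -0.05 with the mean of probes and -0.24 at probe 2, and the nonsensitized 6 hr difference 0.00 at probe 2. At 24 hr saline sites the DSP difference between dogs was -0.02 (array weights), -0.11 (no scaling), -0.01 (no filter and mean of probes) and -0.07 (probe 2), and -0.03 to 0.09 without 1 dog.

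Changes from 0 hr varied with scaling and slide. Without scaling, where the median of all probes moved by 0.21 to 0.51, DSG1 was 0.17 and 0.08 at sensitized and nonsensitized saline sites and 0.41 at nonsensitized allergen sites, and DSP 0.01 at sensitized allergen sites, 0.78 at nonsensitized ones (called, adjusted p = 4.24e-05) and 0.33 and 0.55 at the saline sites. With slide as a block DSG1 was 0.01 (sensitized saline) and 0.03 (nonsensitized allergen, as at probe 2), and DSP -0.52 (nonsensitized allergen; -0.19 with scan session). DSP at the saline sites was 0.07 without the filter in both groups, 0.03 and 0.02 at probe 2, and in sensitized dogs 0.02 with array weights and 0.01 with the mean of probes; without 1 dog they were -0.06 to 0.03 (sensitized) and -0.14 to 0.00 (nonsensitized). The causes were not tested. Alternatives were also counted over 634 combinations of an alternative with a result, those given here included. These results were 6 hr allergen minus saline within a dog group, 24 hr site differences between dogs and changes with time. Of the 634 combinations, 572 kept direction and side of the threshold, 36 became called and 26 changed sign.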
